A study of Mus musculus with 54 samples.

Results

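The genes described here carry out DNA replication and mitosis: 17 genes of the S phase machinery and 22 genes of mitosis, 39 of the 27297 gene entries in the deposited count table. An entry was taken when its name, or one of the names joined in it, was one of the 39 gene symbols, and all 39 symbols were found. The S phase members are Mcm2 to Mcm7, Pcna, Rrm1, Rrm2, Tyms, Gins2, Cdc6, Cdt1, Rfc4, Fen1, Lig1 and Uhrf1. The mitosis members are Mki67, Top2a, Ccnb1, Ccnb2, Ccna2, Cdk1, Cdc20, Plk1, Aurka, Aurkb, Bub1, Bub1b, Birc5, Cenpe, Cenpf, Tpx2, Ube2c, Kif11, Kif23, Nusap1, Prc1 and Hmmr. Plk1 shares its entry with the gene Dctn5, so every Plk1 value is the sum of both and is uncertain.

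A dividing cell first loads the MCM helicase on its replication origins with Cdc6 and Cdt1, then copies its DNA with the sliding clamp Pcna, its loader and the enzymes that join the new fragments, while ribonucleotide reductase and thymidylate synthase supply nucleotides. In mitosis, cyclin B with Cdk1 starts the entry, kinesins and their partners build the spindle, and the anaphase-promoting complex with Cdc20 and Ube2c ends it. Genes of the first phase are classical E2F targets, and many genes of the second carry a CHR element (cell cycle genes homology region) beside CCAAT boxes. Early blood progenitors of the marrow are known to divide often, and mature neutrophils do not divide.

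The study sequenced single myeloid progenitors of mouse bone marrow with MARS-seq, which tags the 3' end of each mRNA with a unique molecular identifier (UMI) and pools 192 wells for amplification. All mice were C57BL/6, the marrow was enriched for cKit with magnetic beads, and every cell was sorted as Lin- cKit+ Sca1-. The well table gives each of the 8 groups 1 mouse identifier, while the strain labels of the Cebpa control differ between its plates; nothing in the labels or the table shows that replicate pools came from separate animals, so p-values measure only the spread between pools, which may be technical. Wild-type unsorted cells came from 16 pools, and 3 groups added a gate to CD34+ FcgR(low): wild-type cells that were CD41+ (2 pools), wild-type cells that were Flt3+ Csf1r+ (2 pools), and cells of the Irf8-GFP genotype that were GFP+ and MHCII+ (4 pools). The Cebpa knockout (8 pools) was Cebpa(flox/flox)Mx1-Cre treated with poly(I:C); Mx1-Cre is driven by an interferon-inducible promoter that poly(I:C) switches on in many cell types, so the deletion was made in the adult and is not limited to myeloid cells. The Cebpa control (4 pools) was also Cebpa(flox/flox) and also received poly(I:C); the strain label of 2 of its pools, those of plate 26, names Mx1-Cre as well. The Cebpe knockout (4 pools) was Cebpe-/-, a loss in the whole animal, and its control (2 pools) was Cebpe+/+. The mice were 6 to 8 weeks old, except that the pools used for Cebpe carry labels with an age of 14 weeks.

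Of the 54 pools, 36 had the same group in the sample labels and in the deposited well table, and these were used; the 6 Cebpe pools were assigned by the well table, against their labels (4 of them are labelled as Cebpa mice with poly(I:C)), and 12 pools were not used. Kept cells had at least 500 UMIs, 6405 of them in the 42 pools used, with 121254 to 852363 UMIs per pool. Cebpa gave 45, 35, 51 and 64 UMIs in the control pools and 0 or 1 in each knockout pool, and Cebpe gave 40 and 21 UMIs in its control pools and 0 in all 4 knockout pools. Markers of the gates followed the labels: the megakaryocyte list reached 135 UMIs per 10000 in CD41+ cells against 2.43 in unsorted cells, and the dendritic list 169 in Irf8-GFP+ cells against 1.92. Levels of the gates and of the unsorted cells come from different sequencing batches, except that CD41+ cells share theirs with unsorted plates 2 and 3, so the Flt3 and Irf8 gates cannot be told apart from their batch. In sums over a pool, fewer cycling cells and less RNA of a gene in each cell cannot be told apart either.

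Promoters were available for 34 of the 39 members in RefSeq (GRCm38.p6, from 250 bases before to 50 bases after each start). Stretches of the 170 bases before the start are shown for 8 members, chosen because they hold the motifs searched; in the first 4, all S phase genes, capitals mark E2F motifs (TTTCCCGC, TTTCGCGC, TTTGCCGC or TTTGGCGC on either strand, which can overlap each other), and in the last 4, all mitosis genes, capitals mark the CHR motif (TTTGAA) and CCAAT boxes on either strand. Other matches stay in lower case: 2 CCAAT boxes each in Mcm6, Mcm5 and Mcm7, and 1 E2F motif in Cdk1.
Mcm6, chr1:128359706-128359875, minus strand: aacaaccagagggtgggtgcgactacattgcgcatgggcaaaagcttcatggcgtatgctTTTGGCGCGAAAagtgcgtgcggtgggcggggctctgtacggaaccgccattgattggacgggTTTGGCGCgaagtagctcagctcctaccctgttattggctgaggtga
Mcm5, chr8:75109339-75109508, plus strand: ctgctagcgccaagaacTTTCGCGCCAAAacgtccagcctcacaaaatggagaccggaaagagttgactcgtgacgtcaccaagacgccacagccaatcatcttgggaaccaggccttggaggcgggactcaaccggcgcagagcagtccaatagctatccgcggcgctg
Mcm7, chr5:138171884-138172053, minus strand: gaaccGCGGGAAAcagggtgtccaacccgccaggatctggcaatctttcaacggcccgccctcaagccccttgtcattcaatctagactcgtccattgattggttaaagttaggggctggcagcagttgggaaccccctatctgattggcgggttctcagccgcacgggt
Cdc6, chr11:98907981-98908150, plus strand: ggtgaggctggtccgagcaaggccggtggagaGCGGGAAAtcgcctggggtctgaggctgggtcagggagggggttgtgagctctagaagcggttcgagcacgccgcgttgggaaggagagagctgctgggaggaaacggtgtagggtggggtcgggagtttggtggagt
Top2a, chr11:99024190-99024359, minus strand: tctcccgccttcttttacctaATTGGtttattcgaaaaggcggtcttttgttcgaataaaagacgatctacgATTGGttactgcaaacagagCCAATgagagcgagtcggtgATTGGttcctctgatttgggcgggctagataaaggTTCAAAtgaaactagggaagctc
Ube2c, chr2:164769759-164769928, plus strand: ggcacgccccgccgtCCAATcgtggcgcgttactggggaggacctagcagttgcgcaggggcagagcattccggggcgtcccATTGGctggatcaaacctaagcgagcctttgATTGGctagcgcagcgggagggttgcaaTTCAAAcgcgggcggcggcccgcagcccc
Cdk1, chr10:69352913-69353082, minus strand: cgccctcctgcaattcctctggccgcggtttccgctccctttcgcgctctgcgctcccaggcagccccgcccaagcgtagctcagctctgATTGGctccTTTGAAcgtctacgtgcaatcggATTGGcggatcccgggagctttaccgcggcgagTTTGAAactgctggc
Mki67, chr7:135716380-135716549, minus strand: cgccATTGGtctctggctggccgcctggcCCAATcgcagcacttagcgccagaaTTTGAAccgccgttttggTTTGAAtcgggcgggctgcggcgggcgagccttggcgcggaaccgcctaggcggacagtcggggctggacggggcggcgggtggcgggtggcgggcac

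An E2F motif was found in 6 of 15 S phase promoters (40.0%; Mcm3, Mcm5, Mcm6, Mcm7, Cdt1 and Cdc6), in 1 of 19 mitosis promoters (5.26%; Cdk1) and in 2.32% of all 27025 promoters of the same length. The CHR letters were found in 14 of 19 mitosis promoters (73.7%), in 2 of 15 S phase promoters (13.3%; Mcm2 and Fen1) and in 18.1% of all. A CCAAT box was found in 17 of 19 mitosis promoters (89.5%), 9 of 15 S phase promoters (60.0%) and 37.9% of all. A match describes the letters in the window and is not a binding site. Mcm4, Gins2, Ccna2, Aurkb and Tpx2 have no entry in that table.

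Unsorted progenitors held 53.1 S phase UMIs per 10000 UMIs of all genes (95% Poisson interval 52.6 to 53.5) and 38.4 mitosis UMIs per 10000. The S phase sum was even over the 16 pools, from 49.5 to 59.0, while the mitosis sum ran from 29.3 to 50.6. All Poisson and binomial intervals given here cover counting error only. CD41+ cells held 40.2 S phase and 34.7 mitosis UMIs per 10000, and Flt3+ Csf1r+ cells 43.0 and 32.7. These levels are not adjusted for depth: the median was 1843.5 UMIs per cell in CD41+ cells and 3101 in unsorted cells. Irf8-GFP+ cells held the fewest S phase UMIs, 38.5 per 10000 (pools 36.6 to 39.6), and the most mitosis UMIs, 49.7 per 10000 (pools 36.7 to 62.7).
They held 0.775 S phase UMIs per mitosis UMI against 1.38 in unsorted cells; the highest Irf8-GFP+ pool, at 0.998, lay below the lowest unsorted pool, at 1.05. The Cebpa knockout (49.4 and 38.5) and its control (48.3 and 35.6) had overlapping pools in both lists, and the Cebpe knockout (41.1 and 40.0) lay below its control (48.7 and 44.6) in both lists without overlap of pools. Medians were 1887 and 2895 UMIs per cell for Cebpa knockout and control, and 3238 and 3696 for Cebpe. With cells thinned to 1000 UMIs, 43.0% and 41.2% of the Cebpa cells held at least 5 S phase UMIs, and 22.6% and 23.7% at least 5 mitosis UMIs. For Cebpe knockout and control these shares were 38.1% and 39.9%, and 32.2% and 30.0%.

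**Figure D1:**
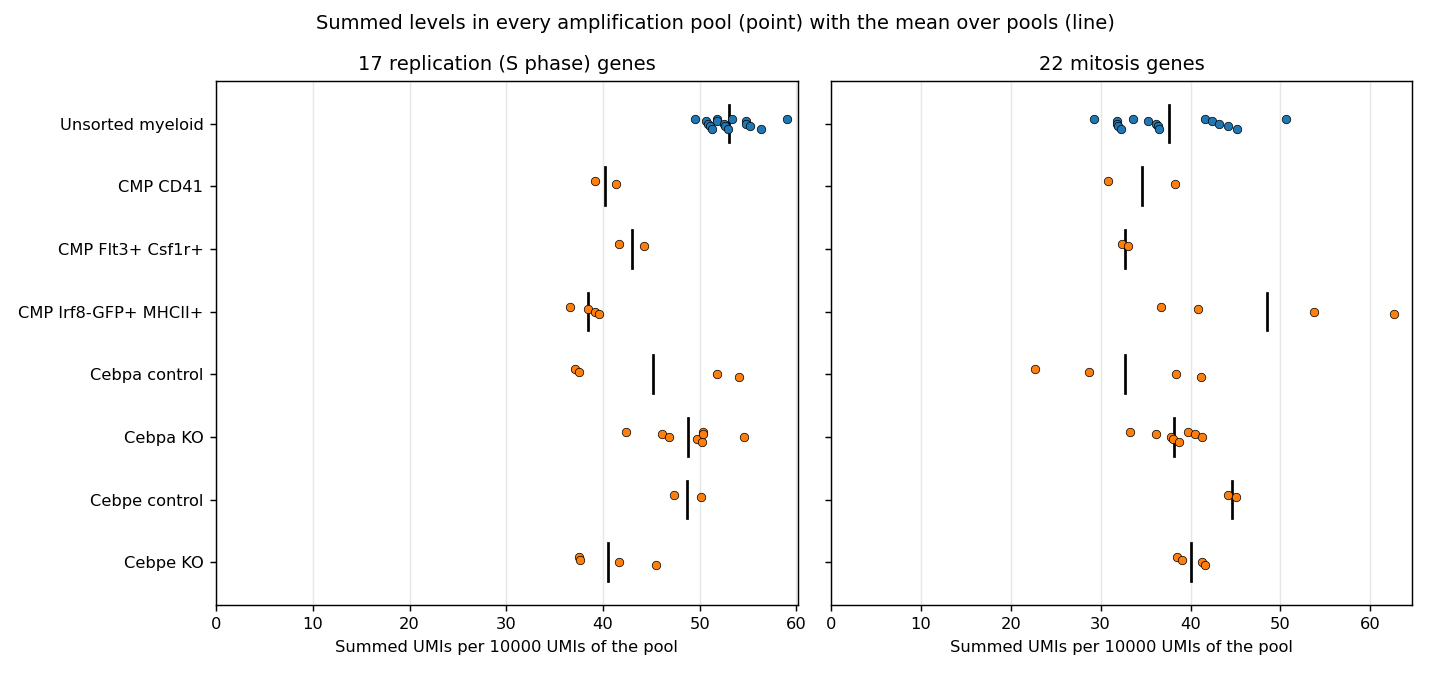
S phase UMIs (left) and mitosis UMIs (right) per 10000 UMIs of all genes in each pool, by group; each point is a pool and each line the mean over the pools of its group. Irf8-GFP+ pools sit at 36.6 to 39.6 in S phase, all below the lowest unsorted pool at 49.5, and reach 62.7 in mitosis, above the highest unsorted pool at 50.6.

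The mitosis members differed from plate to plate within the unsorted group, where each plate holds 2 pools. Mki67, a protein that coats mitotic chromosomes and is the usual mark of dividing cells, read 403, 218, 141, 443, 151, 392, 120.1 and 343 CPM (UMIs of the gene scaled to a total of 1000000 UMIs) on plates 2 to 9. The 4 plates that were high for Mki67, plates 2, 5, 7 and 9, were the same as those with the highest Nusap1, a spindle microtubule binder, which ran from 8.23 to 93.5 CPM. The helicase subunit Mcm7 varied 1.1-fold over the same 8 plates and Mcm6 1.4-fold, against 3.7-fold for Mki67, 2.5-fold for the DNA-untangling enzyme Top2a and 11.4-fold for Nusap1. Over the 6427 genes with a mean of at least 20 CPM the median was 1.69-fold and 2.27% differed 5-fold or more; of the 38 members at that level, 23 varied less than 2-fold and 2 varied 5-fold or more, Nusap1 and the motility receptor gene Hmmr (15.4 to 109.99 CPM), which were named after their values were seen.

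**Figure D2:**
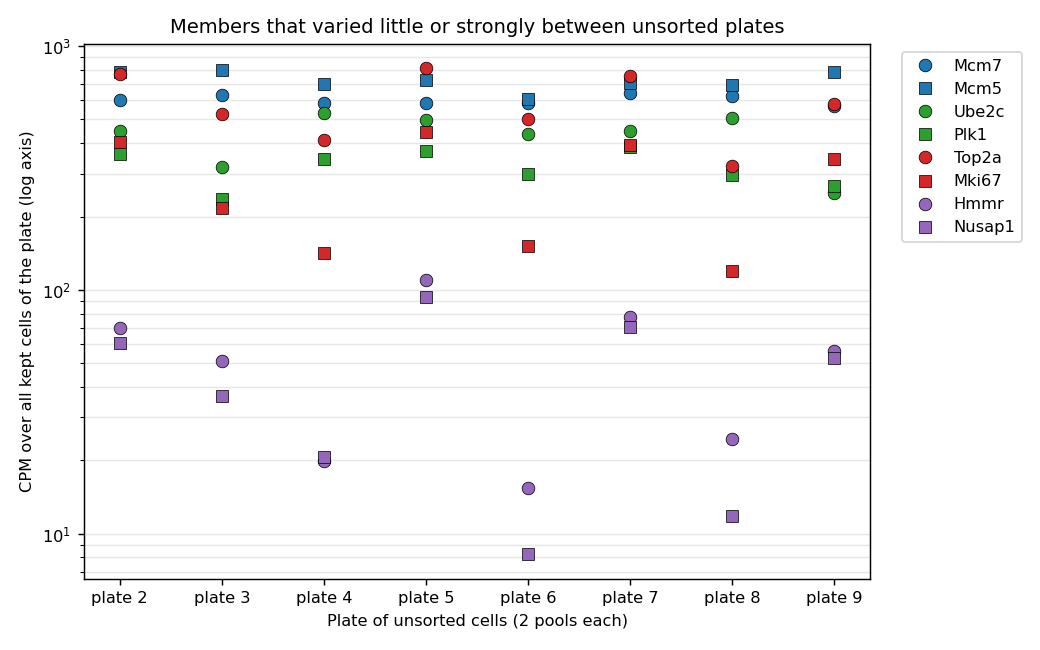
CPM of 8 members on the 8 plates of unsorted cells on a log axis, each point a gene on a plate (the sum of 2 pools). Mcm5 and Mcm7 stay almost level, whereas Mki67 goes from 120.1 to 443 CPM and Nusap1 from 8.23 to 93.5 CPM.

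Levels of both lists also went with the number of UMIs in a cell. Unsorted cells with 500 to under 1500 UMIs held 37.9 S phase and 16.8 mitosis UMIs per 10000, and cells with at least 5000 UMIs held 55.5 and 49.7. The rise was larger for mitosis genes, and it was seen in Car1-high cells (13.8 to 47.0), in Elane-high cells (14.0 to 42.7) and in Irf8-GFP+ cells (27.9 to 62.0) alike. After each cell was thinned to 1000 UMIs, 297 of 2417 unsorted cells (12.3%) held at least 5 UMIs of both lists, 1034 (42.8%) of the S phase list only, 364 (15.1%) of the mitosis list only, and 722 (29.9%) of neither. The cells with both had a median of 5168 UMIs before thinning and those with the S phase list only 3391.5. The 315 unsorted cells below 1000 UMIs were left out of these shares.

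**Figure D3:**
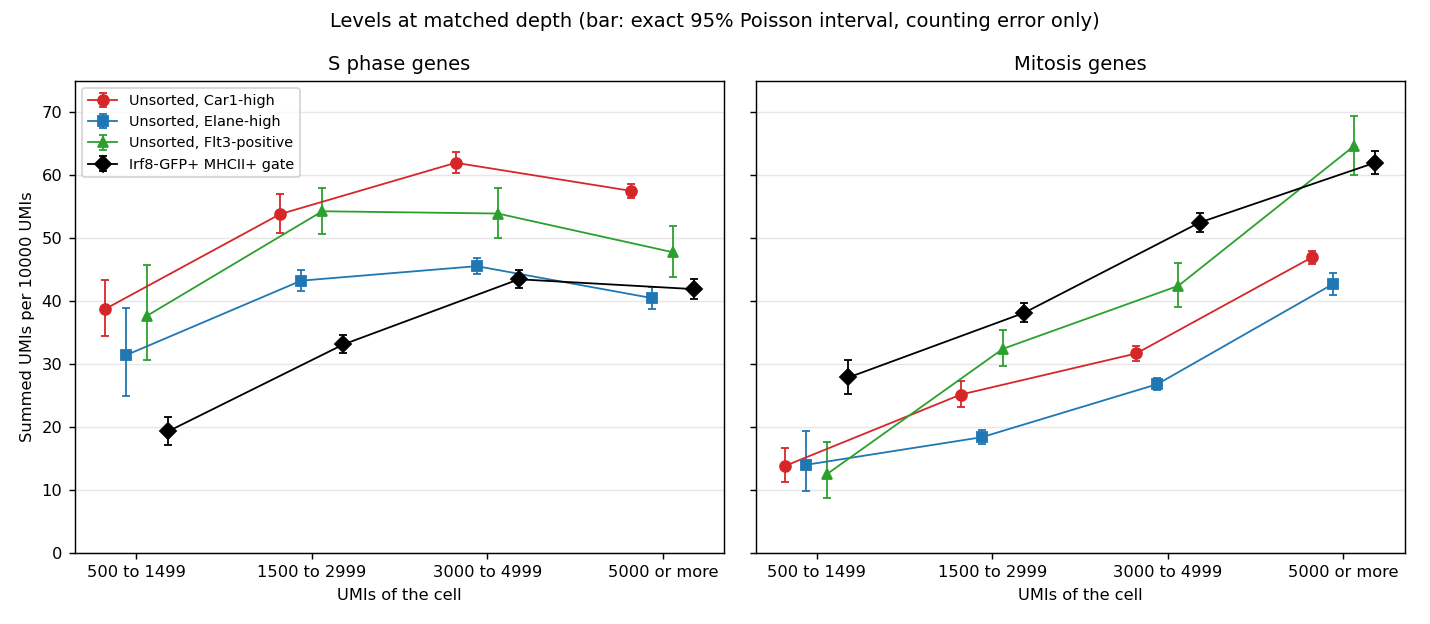
S phase (left) and mitosis (right) UMIs per 10000 UMIs of all genes in cells binned by their UMI count, for Car1-high, Elane-high and Flt3-positive unsorted cells and for the Irf8-GFP+ gate; points are bin levels and bars their 95% Poisson intervals. The mitosis level goes up with depth in every set, from 13.8 to 47.0 in Car1-high cells, and Irf8-GFP+ cells lie lowest for S phase in the 3 shallower bins.

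Unsorted cells were next divided by genes that are not members: Car1, an erythroid carbonic anhydrase (at least 0.5% of a cell's UMIs), Elane, the neutrophil elastase gene (at least 0.5%), Pf4, a platelet factor gene (at least 0.1%) and the cytokine receptor gene Flt3 (at least 1 UMI), each class without the others. Car1-high cells (638 cells, median 4576.5 UMIs) held 58.0 S phase and 40.3 mitosis UMIs per 10000, and Elane-high cells (665 cells, median 3106 UMIs) held 43.6 and 27.8. Flt3-positive cells (149 cells) held 51.4 and 42.9, cells with none of the markers (1217 cells) 55.2 and 42.3, and Pf4-high cells (37 cells, median 1420 UMIs) 38.7 (95% Poisson interval 34.3 to 43.4) and 42.2 (37.6 to 47.1). Erythroid markers read 199 per 10000 in Car1-high and 8.98 in Elane-high cells, and neutrophil markers 19.2 and 572, while markers of mature blood cells stayed at or below 8.7 per 10000 in the groups. The erythroid list holds Car1 and the neutrophil list Elane, so part of these contrasts was fixed by the class thresholds.

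Across the range of Car1 itself the order was not a straight one. The S phase level was 45.6 per 10000 in the 767 cells without Car1, 47.8 and 58.0 in the next bins, 58.6 between 0.5% and 1%, and 54.3 in the 123 cells at or above 1%. The mitosis level was highest at 0.1% to 0.5% Car1, at 45.9, and was 33.0 in the cells richest in Car1. Along Elane both lists were higher in cells with little of it: S phase 56.8 and 58.1 in the lowest bins and 41.9 in the 424 cells at or above 1%, mitosis 40.1 and 44.6 against 25.8. The bins also differed in depth: the median was 2178, 3330, 3417, 4866 and 3207 UMIs from the lowest to the highest Car1 bin, and 2183, 4729, 2197, 3329 and 3008.5 UMIs over the Elane bins. The part of depth in these levels was not tested.

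Elane-high cells were compared with Car1-high cells over the 16 pools that hold both, with the pool as a term in edgeR's quasi-likelihood test and Benjamini-Hochberg adjustment. Of 17 S phase members 12 fell and none rose in Elane-high cells; of 22 mitosis members 16 fell and 1 rose. Of all 8009 genes tested, 26.8% were lower and 26.3% higher, and the median log2 fold change was -0.34 for the S phase members and -0.53 for the mitosis members against -0.04 for all genes.

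Among the helicase subunits, Mcm7 ran from 549.9 to 769 CPM over the Car1-high pools (median 703) and from 337 to 631 (median 446) over the Elane-high pools. The ranges overlap, though the Elane-high median lies below the lowest Car1-high pool. The log2 fold change of Mcm7 was -0.47 ± 0.07 (SE; edgeR adjusted p = 1.7e-10), and that of Mcm2 was -0.45 ± 0.08 (edgeR adjusted p = 9.9e-08). Mcm6 (-0.12, edgeR adjusted p = 0.091) and Mcm5 (-0.12, edgeR adjusted p = 0.1) did not pass. Cdc6, which loads the helicase, had the largest drop of the list: 37.5 to 197 CPM (median 85.9) in Car1-high pools and 9.01 to 99.0 (median 41.2) in Elane-high pools, with a log2 fold change of -1.18 ± 0.17 (edgeR adjusted p = 9.5e-10). The pools overlap for Cdc6 as well. Rfc4, a subunit of the clamp loader, fell by 0.84 on the log2 scale, Rrm1, the large subunit of ribonucleotide reductase, by 0.73, the flap nuclease gene Fen1 by 0.34 and the DNA ligase gene Lig1 by 0.30.

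Among mitosis members, Ube2c, the ubiquitin-conjugating enzyme of the anaphase-promoting complex, ran from 199 to 729 CPM (median 482) in Car1-high pools and from 106 to 455 (median 268) in Elane-high pools. Its ranges overlap, and its log2 fold change was -0.70 ± 0.09 (edgeR adjusted p = 1.4e-12). The kinetochore gene Cenpf fell by 1.01 ± 0.15, Hmmr by 1.02 ± 0.22, the cyclin gene Ccnb2 by 0.65, Mki67 by 0.59, the spindle motor gene Kif11 by 0.58 and Top2a by 0.29 on the log2 scale. Cdk1, the mitotic kinase, did not pass (-0.09, edgeR adjusted p = 0.44). Kif23, a kinesin of the midzone and of cytokinesis, was the member that rose: 15.5 to 78.0 CPM (median 43.2) in Car1-high pools against 15.7 to 118 (median 66.7) in Elane-high pools, with a log2 fold change of 0.70 ± 0.19 (edgeR adjusted p = 0.0011). Its ranges overlap over most of their length.

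**Figure D4:**
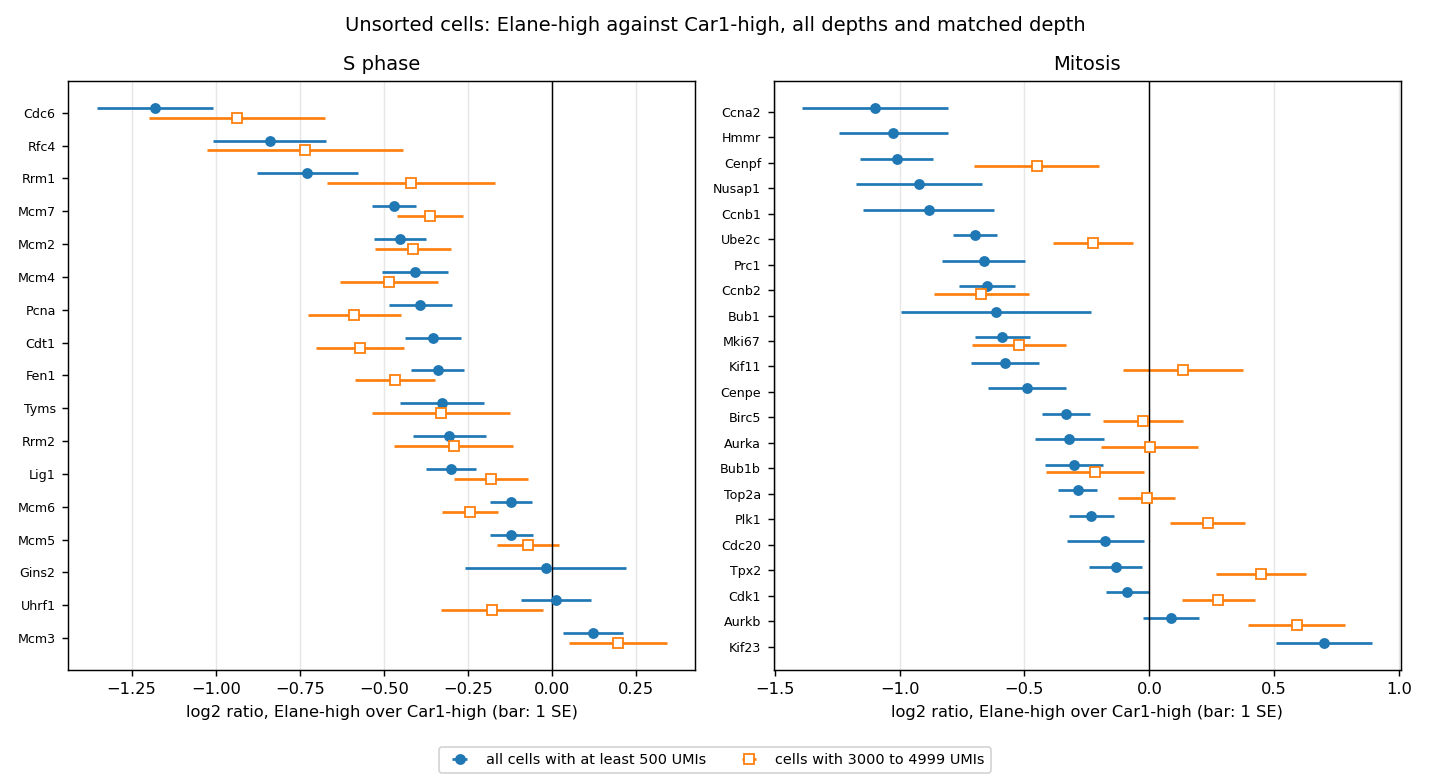
Log2 fold change with its SE of every tested S phase member (left) and mitosis member (right) in Elane-high against Car1-high unsorted cells, over all cells and over cells with 3000 to under 5000 UMIs; mitosis members without a second point were not tested at matched depth, where 13 were. Most members lie left of 0 over all cells; at matched depth 15 of 16 S phase members still do, Mcm3 being the exception, whereas mitosis members lie on both sides.

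Car1-high cells were the deeper class, so the comparison was repeated in cells with 3000 to under 5000 UMIs. Depth was matched only in part there: the median was 4163 UMIs in Car1-high and 3685.5 in Elane-high cells. There 9 of 16 S phase members tested fell and none rose, among them Cdt1 (-0.57 ± 0.13), Pcna (-0.59 ± 0.14), Mcm7 (-0.36 ± 0.10), Mcm2 (-0.41 ± 0.11), Cdc6 (-0.94 ± 0.26) and Mcm6 (-0.24 ± 0.08; edgeR adjusted p = 0.011). Of the 13 mitosis members tested at that depth 2 fell, Mki67 (-0.52 ± 0.19) and Ccnb2 (-0.67 ± 0.19), and 2 rose, Aurkb (0.59 ± 0.19) and Tpx2 (0.45 ± 0.18), the last pair, like Cdt1 and Pcna here, named after their values were seen. Kif11 and Plk1, which fell over all cells, were at 0.14 and 0.23 on the log2 scale at matched depth and did not pass. At matched depth 23.9% of all genes were lower and 25.2% higher. The mitosis level in those cells was 31.7 per 10000 in Car1-high and 26.8 in Elane-high cells, and the S phase level 62.0 and 45.6. Within the sequencing batch of plates 4 to 9, 11 S phase members fell, 16 mitosis members fell and 1 rose, with 49.5% of all genes called, and within that of plates 2 and 3, which holds 4 pools, 3 and 3 fell and none rose, with 36.8%. Without scaling factors, on library size alone, 14 S phase members fell and 18 mitosis members fell, with 34.1% of all genes lower and 22.9% higher.

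After thinning to 1000 UMIs, 64.0% of Car1-high cells (95% exact binomial interval 60.0 to 67.8) and 44.1% of Elane-high cells (40.2 to 48.0) held at least 5 S phase UMIs. For the mitosis list the shares were 30.6% (27.0 to 34.5) and 15.7% (13.0 to 18.7). Flt3-positive cells lay between them for the S phase list, 57.5% (48.6 to 66.0), and at the Car1-high share for the mitosis list, 31.3% (23.6 to 39.9). The 108 wells sorted without a cell held a median of 55.5 and at most 233 UMIs, too few for these shares to be set beside them; their sums were 51.0 S phase and 36.6 mitosis UMIs per 10000, against 53.1 and 38.4 in unsorted cells.

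Genes outside the 2 lists that act in the same phases were taken from wider lists. Of 42 other replication genes 17 were lower and 3 higher in Elane-high cells, with 26.8% of all genes lower and 26.3% higher; the dUTPase gene Dut fell by 0.68, the origin recognition gene Orc2 by 1.26 and the fork protection gene Timeless by 0.88, whereas the chromatin helicase gene Hells was 1.44 higher on the log2 scale. Of 56 other mitosis genes 24 were lower and 4 higher; Cenpa, the centromeric histone, fell by 1.41, and Fam64a rose by 3.83. Of 20 genes of G1 and its control 5 fell, no larger a share than over all genes, led by the cyclin gene Ccne1 (-2.28 ± 0.14), and 3 rose, among them Ccnd2 (0.91 ± 0.08) and E2f1 (0.92). The inhibitor gene Cdkn1a rose by 2.54 ± 0.35. Of 8 cell cycle inhibitor genes tested, Cdkn1a among them, 2 rose and 1 fell (Fzr1).

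Flt3-positive cells were compared with both classes, and here the calls moved with the scaling between libraries. Against Car1-high cells 10 S phase members fell of 17, with 23.2% of all genes lower and 12.7% higher and a median of -0.25 over all genes; with RLE in place of TMM scaling factors that median was 0.05, and 4 S phase members fell (Mcm7, Cdc6, Cdt1 and Fen1) and 1 rose, with 10.2% of all genes lower and 16.9% higher. Those 4 passed under both scalings, with Mcm7 at -0.65 ± 0.10 and the licensing gene Cdt1 at -0.85 ± 0.14 under TMM. Of the mitosis members 1 rose, Kif23 (1.02 ± 0.28, edgeR adjusted p = 0.0018), and 4 fell under TMM; under RLE 2 rose, Top2a and Kif23, and none fell. Against Elane-high cells, with 2.91% of all genes higher and 15.1% lower under TMM, 3 mitosis members rose: Cenpf (1.11 ± 0.23), Top2a (0.39 ± 0.11) and Nusap1 (1.16 ± 0.39); none fell. After thinning to 1000 UMIs, on 7 Flt3-positive pool sums, Top2a was at -0.85 in place of 0.39 on the log2 scale and did not pass. Under RLE 10 rose and none fell, with 6.02% of all genes higher and 5.19% lower. Of the S phase members 3 fell and 1 rose under TMM, and 3 rose and none fell under RLE. In cells with 3000 to under 5000 UMIs only 1 Flt3-positive pool sum entered either comparison, so nothing is read from it. The Pf4-high comparison rested on 1 pool sum of 5 cells, the smallest sum used; 2 S phase members were called lower and no mitosis member was called (2 at an unadjusted p under 0.05; DESeq2 0), with 0.574% of all genes lower and 0.474% higher.

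The Irf8-GFP+ MHCII+ gate, was set against unsorted cells. Of 17 S phase members 12 fell and none rose, and of 22 mitosis members 6 rose and none fell (edgeR quasi-likelihood test, Benjamini-Hochberg adjustment). Of all genes, 24.1% were lower and 25.5% higher, so the mitosis members rose about as often as all genes did. The median log2 fold change was -0.48 for the S phase members and 0.28 for the mitosis members, against 0.01 for all genes.

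Of the licensing genes, Cdt1 read 166, 164, 162 and 193 CPM in the 4 Irf8-GFP+ pools and 268, 314 and 361 CPM at the lowest, median and highest of the 16 unsorted pools. Every gated pool lay below every unsorted pool, which held for 6 of the 17 S phase members and for 12.6% of all 6432 genes checked, and the log2 fold change was -0.83 ± 0.11 (edgeR adjusted p = 3.7e-07). Mcm2 read 229, 234, 233 and 243 CPM against 316, 420.4 and 528, again without overlap, with a log2 fold change of -0.81 ± 0.12 (edgeR adjusted p = 1.5e-06). Mcm5 read 469, 530.0, 502 and 521 CPM against 579, 705 and 869, and the groups did not overlap. Mcm6 read 651, 696, 648 and 556 CPM against 645, 852 and 959, so 3 of its 4 gated pools lay inside the unsorted range; it fell by 0.33 on the log2 scale (edgeR adjusted p = 0.018). Among the genes of fork and fragment processing, Fen1 read 232, 249.9, 217 and 176 CPM against 281, 336 and 412, and Rfc4 48.6, 35.0, 40.5 and 61.7 against 61.3, 75.4 and 95.5. Fen1 did not overlap the unsorted pools and Rfc4 touched their lowest one. Rrm1 fell by 0.98 ± 0.23 and Lig1 by 0.49 ± 0.12. Pcna, the sliding clamp, did not follow: 269, 275, 316 and 293 CPM against 193, 277 and 321, a log2 difference of 0.15 (edgeR adjusted p = 0.29).

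Among the genes of the spindle and of cytokinesis, Kif23 read 238, 193, 126 and 123 CPM in the gated pools and 40.4, 61.8 and 95.1 at the lowest, median and highest unsorted pool. All 4 gated pools lay above all unsorted pools, as they did for 2 of 21 mitosis members and for 7.91% of all genes, and Kif23 rose by 1.45 ± 0.17 (edgeR adjusted p = 1.6e-08). Kif11 read 284, 258, 243 and 195 CPM against 83.6, 131 and 178, also without overlap, and rose by 1.00 ± 0.13 (edgeR adjusted p = 2.4e-07). Nusap1 read 207, 167, 68.9 and 50.2 CPM against 6.00, 46.4 and 94.1; the first pair of pools lay above the unsorted range and the second inside it, and the log2 fold change was 1.46 ± 0.39 (edgeR adjusted p = 0.0022). Top2a showed the same split, 1349.8 and 1087 CPM in the pools of plate 19 and 656 and 544 in those of plate 20, with 304, 560.2 and 871 in unsorted pools; it rose by 0.66 ± 0.21 (edgeR adjusted p = 0.01). Mki67 read 724 and 441 CPM on plate 19 and 200.5 and 178 on plate 20 and did not pass (0.50 ± 0.33, edgeR adjusted p = 0.22). Ube2c and Cdc20, both parts of the machinery that ends mitosis, rose by 0.47 each, and Cdk1 (0.29) and Plk1 (-0.14), a kinase of mitotic entry and the spindle, did not pass.

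The mitosis sum was 58.3 per 10000 on plate 19 and 38.7 on plate 20, against 38.4 in unsorted cells, whereas the S phase sum was 38.9 and 38.1. Over all depths only plate 19 lay well above unsorted cells in mitosis. Plate 20 was also shallower, with a median of 2323.5 UMIs against 3014 on plate 19 and 3101 in unsorted cells. Over the 4 depth bins the mitosis level of the gate was 27.9, 38.1, 52.5 and 62.0. In unsorted cells it was 16.8, 26.3, 31.4 and 49.7, and pools overlapped in each bin. At 3000 to under 5000 UMIs the gated pools ran from 40.1 to 65.0 and the unsorted pools from 22.1 to 40.2. With the plate in place of the pool as the unit, 8 S phase members fell and 2 mitosis members rose, Kif11 and Kif23, with 37.7% of all genes called. Without any 1 of the 4 pools 9 to 11 S phase members and 5 to 6 mitosis members passed, with 1883 to 1919 genes higher and 1676 to 2015 lower. Mcm6 (edgeR adjusted p = 0.062) and Top2a (0.12) did not pass without replicate 3, nor Mcm7 (0.072) and Ube2c (0.054) without replicate 4. Ube2c (0.051) and Cdc20 (0.091) did not pass without replicate 5, nor Cdc20 (0.053) without replicate 6. The Irf8-GFP+ cells were shallower than unsorted cells (median 2682 against 3101 UMIs), and binned by depth their S phase pools ran from 14.5 to 23.6 at 500 to under 1500 UMIs against 31.2 to 42.4 in unsorted pools, and from 38.0 to 45.3 against 51.0 to 63.9 at 5000 UMIs or more. At 1500 to under 3000 UMIs they ran from 29.2 to 35.0 against 43.4 to 59.0. At 3000 to under 5000 UMIs the ranges overlapped, 40.6 to 48.7 against 48.4 to 60.8. After thinning to 1000 UMIs, 34.4% of Irf8-GFP+ cells (95% exact binomial interval 30.9 to 38.0) held 5 S phase UMIs against 55.1% of unsorted cells (53.1 to 57.1), and the mitosis shares were 35.5% (32.0 to 39.2) and 27.3% (25.6 to 29.2); unthinned, the S phase shares were 64.2% and 82.3%. Of other replication genes 16 of 44 fell and 2 rose, and of other mitosis genes 19 of 55 rose and 3 fell, with 24.1% of all genes lower and 25.5% higher. The antiproliferative genes Btg1 (4.38 ± 0.26) and Btg2 (3.69 ± 0.25) and the inhibitor gene Cdkn1a (1.89 ± 0.21) rose in the same cells, the cyclin gene Ccnd1 rose by 2.26 ± 0.32 and Ccne1 fell by 1.93 ± 0.19. Of 11 cell cycle inhibitor genes tested, with Btg1, Btg2 and Cdkn1a among them, 6 rose and 1 fell (Pkmyt1). Erythroid markers were at 2.67 per 10000 in this gate and at 108 in unsorted cells; the part of cell make-up in these differences was not tested.

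**Figure D5:**
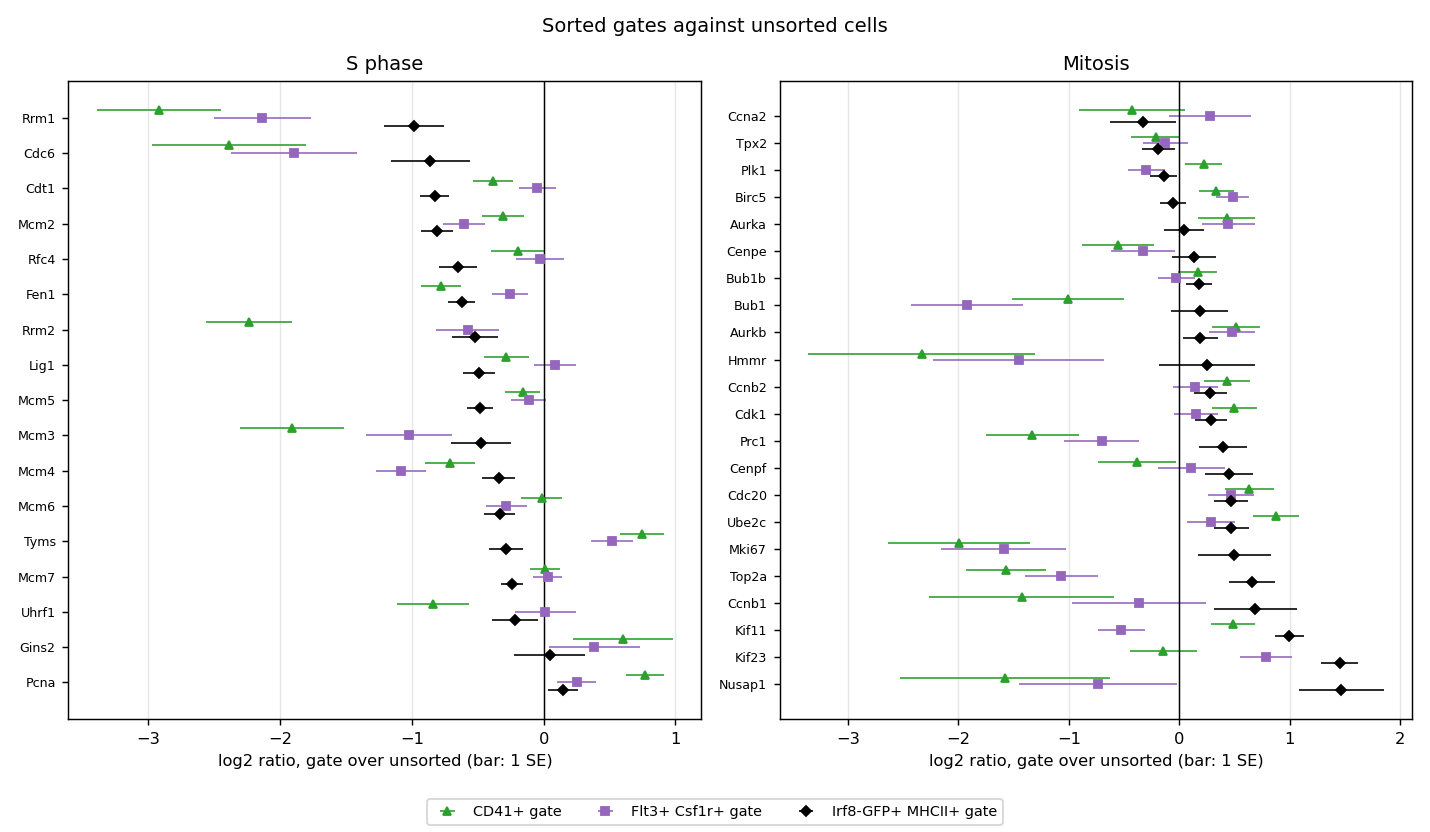
Log2 fold change with its SE of the S phase members (left) and mitosis members (right) in the CD41+, Flt3+ Csf1r+ and Irf8-GFP+ MHCII+ gates against the same 16 unsorted pools, which the 3 comparisons share. Rrm1 and Cdc6 lie far left of 0 in the CD41+ and Flt3+ Csf1r+ gates, and Kif11, Kif23 and Nusap1 far right in the Irf8-GFP+ gate.

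CD41+ cells, in which megakaryocyte genes are high, showed a divided S phase list: 8 of 17 members fell and 2 rose, and of the mitosis members 3 fell and 4 rose (edgeR). Of all genes 22.3% were lower and 20.4% higher in this gate, 42.7% in all, and the mitosis members were called no more often than that. The enzymes that feed nucleotides to replication went in opposite directions. Rrm1 read 16.0 and 11.3 CPM in the 2 gated pools against 52.5, 120.1 and 166 in unsorted pools, and the groups did not overlap; both gated pools were below every unsorted pool for 9 S phase members and 25.9% of all genes, and above for 2 and 14.9%. The log2 fold change of Rrm1 was -2.92 ± 0.47 (edgeR adjusted p = 1.3e-05). Rrm2, the small subunit, read 34.7 and 33.8 CPM against 118, 169.5 and 253 and fell by 2.24 ± 0.33. Tyms, the thymidylate synthase gene, read 179 and 242 CPM against 109.9, 132 and 177, just above the highest unsorted pool, and rose by 0.75 ± 0.17. Pcna read 397 and 428 CPM against 193, 277 and 321, above all unsorted pools, and rose by 0.77 ± 0.15 (edgeR adjusted p = 0.00011). The helicase subunits were unlike each other: Mcm3 (64.0 and 61.9 CPM against 131, 241 and 473) fell by 1.91 ± 0.39 and Mcm4 by 0.71 ± 0.19, while Mcm6 (-0.02), Mcm7 (0.01) and Mcm5 (-0.16) did not pass. Cdc6 fell by 2.39 ± 0.59 and Fen1 by 0.78 ± 0.15.

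In the mitosis list of CD41+ cells, Ube2c read 784 and 650.0 CPM against 201, 446 and 564 in unsorted pools, above all of them, and rose by 0.88 ± 0.21 (edgeR adjusted p = 0.0013). Cdc20 rose by 0.63, Cdk1 by 0.50 and Kif11 by 0.49, each with 1 or both pools inside the unsorted range. Top2a read 224 and 132 CPM against 304, 560.2 and 871, below all of them, and fell by 1.57 ± 0.36 (edgeR adjusted p = 0.00094). Mki67 read 72.0 and 53.5 CPM against 108, 245 and 509.6, also without overlap, and fell by 1.99 ± 0.64, and the spindle midzone gene Prc1 fell by 1.33 ± 0.42. Within the sequencing batch that CD41+ cells share with unsorted plates 2 and 3, 2 S phase members rose and 8 fell, and 4 mitosis members rose and 5 fell, with 40.9% of all genes called against the share over all unsorted pools above. Leaving out either replicate left 1 gated pool, and fewer genes were then called among all genes as well. The calls of Mki67, Cdk1, Prc1 and Mcm4 were lost in both cases, which is not read as a result about these members. The 2 pools come from 1 plate, and the gate's median was 1843.5 UMIs per cell against 3101. Binned by depth, its mitosis level was 25.8, 39.7 and 41.1 per 10000 in the bins below 5000 UMIs, against 16.8, 26.3 and 31.4. Among these bins only that of 1500 to under 3000 UMIs had no overlap of pools. In its 15 cells with at least 5000 UMIs the level was 16.5 against 49.7. After thinning to 1000 UMIs, 31.1% of its cells held at least 5 mitosis UMIs against 27.3% of unsorted cells. The S phase shares were 39.4% and 55.1%. From the shallowest to the deepest bin, the S phase level of the gate was 38.7, 38.1, 35.9 and 59.0 per 10000. In unsorted cells it was 37.9, 48.7, 54.5 and 55.5. Among genes outside the lists, Ccne1 (-1.99 ± 0.29) and the kinase gene Cdk6 (-2.90 ± 0.39) fell, and the phosphatase gene Cdc25b (2.54) and Btg2 (2.65) rose. Of 11 cell cycle inhibitor genes tested, Btg2 among them, 2 rose and 2 fell (Rbl2 and Wee1), with 20.4% of all genes higher and 22.3% lower.

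Flt3+ Csf1r+ cells showed some of the same members low. Of 17 S phase members 5 fell and 1 rose, and of the mitosis members 4 fell and 2 rose, with 20.0% of all genes lower and 19.9% higher. Rrm1 read 32.1 and 16.6 CPM against 52.5, 120.1 and 166 in the unsorted pools, below all of them, and fell by 2.13 ± 0.37 (edgeR adjusted p = 3.7e-05). Mcm4 read 111 and 105 CPM against 178, 242 and 334 and fell by 1.08 ± 0.19 (edgeR adjusted p = 3.5e-05), and Mcm2 read 255 and 265 against 316, 420.4 and 528 and fell by 0.60 ± 0.16. Neither overlapped the unsorted pools; 6 S phase members lay below all of them and 1 mitosis member above, with 21.0% of all genes below and 14.2% above. Cdc6 fell by 1.90 ± 0.48 and Mcm3 by 1.02; Tyms rose by 0.52 ± 0.16 (edgeR adjusted p = 0.011). In mitosis, Top2a (312 and 209.6 CPM) fell by 1.07 ± 0.33, Mki67 (119.9 and 51.5 CPM) by 1.59 ± 0.56 and the checkpoint kinase gene Bub1 (3.38 and 5.52 CPM) by 1.92 ± 0.51, and Kif23 (117 and 88.3 CPM) rose by 0.78 ± 0.24 and the survivin gene Birc5 (343 and 305 CPM) by 0.48 ± 0.15. Top2a and Mki67 each had 1 pool inside the unsorted range, as did Kif23, while Birc5 was above it in both pools. Leaving out either replicate left 1 pool in this gate, and fewer genes were then called among all genes as well. Mki67, Mcm3, Birc5 and Kif11 lost their call in both cases, which is not read as a result about these members. With plates as units 3 S phase members and 1 mitosis member passed, and 24.6% of all genes did. Ccnd1 (1.96 ± 0.43) and Cdkn1a (1.96 ± 0.27) rose and Ccne1 fell by 2.23 ± 0.28 here too. Of 11 cell cycle inhibitor genes tested, Cdkn1a among them, 4 rose and 3 fell (Cdkn1b, Rb1 and Rbl2). From the shallowest to the deepest bin of UMIs per cell, the mitosis level of this gate was 13.1, 21.0, 36.9 and 59.2 per 10000. In unsorted cells it was 16.8, 26.3, 31.4 and 49.7. The S phase level was 31.4, 47.5, 43.5 and 27.7 in the gate, against 37.9, 48.7, 54.5 and 55.5. Only 25 gated cells were in the shallowest bin and 20 in the deepest. Neutrophil markers were at 211 per 10000 in this gate and erythroid markers at 1.78; their part was not tested.

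Loss of Cebpa, the transcription factor that neutrophil and monocyte progenitors need, was set against the poly(I:C)-treated control. No S phase member passed of 17 tested by edgeR (5 at an unadjusted p under 0.05) or by DESeq2 (0), and of 20 mitosis members tested 1 fell, with 5.57% of all genes lower and 3.14% higher. That member was Tpx2, a spindle assembly factor, with 145, 179.8, 233 and 165 CPM in the control pools and 96.3, 118 and 181 at the lowest, median and highest of the 8 knockout pools. The groups overlap at 1 high knockout pool, and the log2 fold change was -0.64 ± 0.18 (edgeR adjusted p = 0.035). The call held without replicate 3 or 4 of the control or replicate 9 of the knockout, and was lost without any 1 of the other 9 pools, with edgeR adjusted p from 0.051 to 0.17. Ccna2 and Bub1 were not tested. Mcm7 (0.00), Mcm2 (-0.03), Lig1 (-0.13), Mcm5 (-0.22), Cdk1 (0.06), Plk1 (0.03) and Ube2c (-0.11) had small differences.

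The control pools themselves differed by plate. Mcm6 read 799 and 668 CPM on plate 26 and 219.6 and 188 on plate 27, and 658, 813 and 1113 in the knockout pools. Plate 27 lay far below every knockout pool and plate 26 within their range, and the log2 difference of Mcm6 was 0.74 ± 0.27 (edgeR adjusted p = 0.089). Top2a read 673 and 677 CPM on plate 26 and 105 and 82.5 on plate 27, Mki67 191 and 191 against 30.4 and 29.7, and Nusap1 65.1 and 65.9 against 3.38 and 3.30. Not all members were low on plate 27: Cdt1 was 395 and 419 CPM there and 294 and 251 on plate 26, and Ube2c 571 and 425 against 463 and 541. The S phase sum was 52.9 per 10000 on plate 26 and 37.3 on plate 27, and the mitosis sum 39.8 and 25.7. Plate 27 was also shallower, with a median of 2076 UMIs per cell against 3805.5 on plate 26. The part of depth in these differences was not tested. Car1 was at 4410.1 and 4279.7 CPM on plate 26 and 662 and 498 on plate 27, while erythroid markers other than Car1 were at 88.3 and 90.4 per 10000 and at 65.0 and 67.5. Plate 26 is also the plate whose strain label names Mx1-Cre; its Cebpa level was 73.8 and 87.8 CPM, against 152 and 115 on plate 27 and 3 UMIs in all 8 knockout pools.

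Each plate of the control gave another answer. Without the pools of plate 26, 4 S phase members rose and 3 fell and 9 mitosis members rose and 3 fell, and 45.1% of all genes were called. Without the pools of plate 27 no member of either list passed, and 4.56% of all genes did. In Car1-high cells alone, where both control pools come from plate 26, no S phase or mitosis member passed by edgeR or by DESeq2 (2 of each list at an unadjusted p under 0.05 by edgeR), with 0.332% of all genes higher and 0.176% lower. Car1-high cells held 54.2 S phase and 39.8 mitosis UMIs per 10000 in the knockout and 54.8 and 40.5 in the control. In the other sequencing batch, SB23, where pools could be grouped only by the well table and against their labels, 1 S phase member rose and 3 fell and 4 mitosis members rose, with 11.7% of all genes called. The difference between the batches was tested, and no member passed (2 S phase and 3 mitosis members at an unadjusted p under 0.05 by edgeR; DESeq2 was not run on it), while 0.0143% of all genes were higher and 0 lower. Outside the lists, the centromere gene Cenpw fell by 1.00 ± 0.19, the kinetochore gene Spc24 by 0.67 ± 0.15, Dut by 0.57 ± 0.16 and the lamin gene Lmnb1 by 0.90 ± 0.25 over all cells, and Ccnd2 rose over all cells (0.63 ± 0.18) and in Car1-high cells (1.04 ± 0.21, edgeR adjusted p = 0.0028). Neutrophil markers were at 4.54 per 10000 in the knockout and 136 in the control; their part in these differences was not tested.

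Loss of Cebpe, a transcription factor of late neutrophil maturation, was set against Cebpe+/+ cells. Of 17 S phase members 2 fell and none rose, and of 22 mitosis members 1 fell, with 9.85% of all genes lower and 13.5% higher. Rfc4 read 87.4 and 68.4 CPM in the 2 control pools and 25.0, 37.0, 38.7 and 38.2 in the 4 knockout pools, without overlap, and its log2 fold change was -1.02 ± 0.28 (edgeR adjusted p = 0.0069). Rrm1 read 138 and 83.8 CPM against 38.6, 48.6, 69.7 and 58.8, again without overlap (-0.88 ± 0.25, edgeR adjusted p = 0.0088). The cyclin gene Ccnb1, which drives mitotic entry, read 50.4 and 59.8 CPM against 25.0, 34.7, 17.0 and 15.9 (-1.18 ± 0.35, edgeR adjusted p = 0.015); all knockout pools were lower. Without control replicate 1 neither Rfc4 (edgeR adjusted p = 0.13) nor Rrm1 (0.35) passed, and Ccnb1 did not pass without control replicate 2 (0.18) or knockout replicate 4 (0.055). By DESeq2 no mitosis member passed, and after thinning to 1000 UMIs no member of either list did. The thinned fit tested 3293 genes in place of 7369, of which 279 were higher and 175 lower. With pools grouped by their labels in place of the well table, 3 S phase members rose (Mcm2, Pcna and Rfc4) and none fell, and Rfc4 was at 1.04, Rrm1 at 0.037 and Ccnb1 at 0.60 on the log2 scale. Of all 6965 genes tested there, 642 were higher and 697 lower. By label, however, the control pools were knockout replicates 3 and 4 of the well table, which held 0 Cebpe UMIs. The knockout pools by label were Cebpa pools of the well table. That grouping therefore had no control pool with Cebpe UMIs. In the reported grouping Mcm2 (-0.39), Top2a (0.21) and Mki67 (-0.03) did not pass. Of 43 other replication genes 8 fell and 1 rose, with 9.85% of all genes lower and 13.5% higher, among them Dut (-0.69 ± 0.13), Rpa3 (-0.89 ± 0.19), a subunit of the single-strand binding protein, and Wdhd1 (-1.09 ± 0.25). In G1, Ccne1 fell by 1.13 ± 0.18 and E2f1 rose by 0.88 ± 0.26.

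Elane-high cells made up 71.6% of the Cebpe knockout and 24.0% of its control, the class in which S phase members are low in unsorted cells. Within Elane-high cells the knockout held 38.4 S phase and 38.4 mitosis UMIs per 10000 (400 cells) and the control 42.7 and 31.5 (60 cells). The mitosis level of that class was higher in the knockout (pools 36.8 to 40.9 against 30.2 to 32.5), while over all cells it was lower. Car1-high cells held 53.4 and 45.9 in the knockout (33 cells) and 51.8 and 47.0 in the control (64 cells). These levels within a class were not tested.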

How the data were processed

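The authors deposited UMI counts per gene and well for each amplification pool, from 3' end MARS-seq libraries of single cells, with a table that gives each well its pool, plate, mouse, group and number of cells, per the file headers. The submitters' processing notes name bcl2fastq (version 2.15.0.4) and the build mm9 and, as far as used here, no aligner. The members and the wider gene lists were chosen with earlier results of these data known.

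Wells with 1 cell and at least 500 UMIs were kept, 8399 of 10260 (81.9%), without a doublet caller. Counts were summed per pool, or per pool and marker class (at least 5 cells, 20 for Car1-high cells in the Cebpa comparison), and tested with edgeR 4.0.16 in R 4.3.3 (quasi-likelihood test, TMM scaling, filterByExpr, Benjamini-Hochberg adjusted p under 0.05), DESeq2 1.42.0 being an alternative. Gates were fitted together with the 16 unsorted pools, and comparisons of classes had the pool as a block. An SE is the log2 fold change divided by the root of the F statistic. The fit was tested on simulated data. Levels per 10000 UMIs have Poisson intervals, and thinning drew 1000 UMIs per cell without replacement. Python 3.11.15, numpy 2.4.6, pandas 2.3.3, scipy 1.17.1 and matplotlib 3.10.9 were used.

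The text names the 5 members of each list with the highest mean CPM in unsorted pools, up to 6 members called per list and direction, and up to 3 genes per wider list and direction; other members shown for a plate, a depth or a missing change were chosen after their values were seen. Of the gene entries 2109 join several names and 11135 held no UMI. Promoter positions are those of GRCm38.p6 and were not used with the authors' build. Results were also computed with RLE scaling, no filter, a minimum of 1000 UMIs, thinning, grouping by well table or label alone, plates as units, other class thresholds and leaving out a pool. Chosen after seeing the data were library size scaling, sums of any size, single batches, cells of matched depth, plates as units for the gates, leaving out Cebpa knockout pools or a Cebpa control plate, and the test of the Cebpa difference between batches.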

Additional observations from a re-analysis of the deposited data

Results flagged for a closer look

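Over 48 groups of values checked, each a member or the sum of a list in a group of 4 to 10 pools, 4 held a pool far from the others. Chance gives about 1 in 20. In the Cebpa control, Mcm2 read 280.4 CPM in replicate 6 and 384 to 398 in the other pools. In the Cebpa knockout, Mcm6 read 1113 CPM in replicate 9, with 658 to 862 in the others, and Mcm2 read 289 CPM in the same pool, with 361 to 416 in the others. Lig1 read 298 CPM in replicate 6 of the Cebpa knockout, with 407 to 470.1 in the others.

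Wells sorted without a cell, which no comparison uses, held 32 S phase UMIs and 23 mitosis UMIs in 6279 UMIs over 108 wells, above the 3 counts that a count of 0 allows. These wells held a median of 55.5 and at most 233 UMIs, and their sums came to 51.0 S phase and 36.6 mitosis UMIs per 10000, against 53.1 and 38.4 in unsorted cells.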

How the results depend on the processing

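Counts of members called are given as the reported value first. The number of genes tested and called also changed with the setting, and a member not tested cannot be called. Where the share over all genes is not given, a change in count is not read as a result about the members. Leaving out pools of either group (1 at a time, and for the Cebpa control also a plate at a time) gave 0 to 7 S phase members and 0 to 12 mitosis members for Cebpa (reported 0 and 1), 0 to 4 and 0 to 2 for Cebpe (2 and 1), 5 to 7 and 1 to 3 for CD41+ cells (10 and 7), and 3 to 4 and 2 to 2 for Flt3+ Csf1r+ cells (6 and 6); for Irf8-GFP+ cells 9 to 11 and 5 to 6 passed (12 and 6).
For Cebpa, S phase members called became 2 without a filter, 3 by the well table and 4 in batch SB23 alone, and mitosis members 2 without a filter, 2 after thinning, 4 by the well table, 4 in SB23, and 0 with 1000 UMIs as the minimum, by label or with plates as units; in Car1-high cells 1 mitosis member passed by the well table.
For Cebpe, thinning left 0 of each, DESeq2 called 0 mitosis members, and grouping by label gave 3 and 1, in the other direction. The control by label was 2 knockout pools of the well table, with 0 Cebpe UMIs.
For CD41+ cells the 7 mitosis calls became 7 by DESeq2 with another split of directions, 4 without a filter, 6 by the well table, 4 by label, 3 with plates as units and 9 within SB17.
For Flt3+ Csf1r+ cells the S phase calls became 11 by the well table and 3 with plates as units, and the mitosis calls 3 after thinning, 11 by the well table, 6 by label and 1 with plates. For Irf8-GFP+ cells the mitosis calls became 10 by the well table and 2 with plates.
For Elane-high against Car1-high cells, 12 S phase calls became 6 after thinning, 6 with doubled thresholds and 3 within SB17, and 17 mitosis calls became 4, 4 and 3 there and 4 in cells with 3000 to under 5000 UMIs. Genes higher and lower were 793 and 698 of 3618 tested after thinning and 976 and 824 of 4388 with doubled thresholds. They were 788 and 723 of 4102 within SB17, 813 and 771 of 3230 at that depth, and 2104 and 2150 of 8009 in the reported fit.
For Pf4-high cells the reported fit rests on 1 pool sum, so its calls are not compared across settings. With plates as units and the replicate block 12 S phase and 2 mitosis members were called, with 280 genes higher and 1013 lower of 7224 tested. With sums of any size 16 and 11 were called, with 250 genes higher and 2439 lower of 5879.
For Flt3-positive against Car1-high cells, S phase calls (10) became 5 by DESeq2, 5 by RLE, 5 after thinning, 1 with doubled thresholds, 6 on library size, and 0 at matched depth or within SB17; mitosis calls (5) became 2 by DESeq2, RLE, doubled thresholds, library size, SB19 or plates with the replicate block, 3 with 1000 UMIs or sums of any size, 0 at matched depth and 1 within SB17.
Against Elane-high cells, S phase calls (4) became 3 by DESeq2 and RLE, 1 with 1000 UMIs, 2 after thinning, with halved or doubled thresholds or with no replicate block, 1 with plates or sums of any size, 5 on library size and 0 at matched depth or within SB17; mitosis calls (3) became 10 by DESeq2 and RLE, 6 with 1000 UMIs or plates, 5 with sums of any size, 1 after thinning, with halved thresholds or with no replicate block, 12 on library size and 0 with doubled thresholds, at matched depth or within SB17. Matched depth left 1 Flt3-positive pool sum, so these values say nothing of stability. The cause was not tested, apart from the smaller number of cells or pools in subsets.
Summed levels that moved by more than the spread of pools after thinning were mitosis in Flt3+ Csf1r+ (28.8), S phase in Irf8-GFP+ (35.8), both in the Cebpa knockout (43.5 and 31.0) and the Cebpe control (44.8 and 37.9), mitosis in the Cebpe knockout (38.2), and both in Pf4-high cells (49.0 and 36.9). Thinned to 2000 UMIs, the shares with 5 S phase and 5 mitosis UMIs were 89.9% and 61.6% in unsorted, 68.8% and 61.0% in Irf8-GFP+, 93.9% and 68.2% in Car1-high, 84.3% and 44.6% in Elane-high and 89.8% and 65.3% in Flt3-positive cells.
Single log2 values turned their direction in 29 cases. With pools grouped by label, which exchanges Cebpe and other pools, Cebpe values became 0.57 for Mcm2, 1.04 for Rfc4, 0.037 for Rrm1, 0.60 for Ccnb1, 0.56 for Dut, 1.23 for Wdhd1, 1.63 for Ccne1, 0.39 for Myc and 1.16 for E2f4. These Cebpe values have knockout pools of the well table, without Cebpe UMIs, as the control. By label, Flt3+ Csf1r+ values became 0.15 for Top2a, 0.074 for Mki67, -0.054 for Tyms, 0.15 for Bub1, 0.57 for Kif11 (0.19 by the well table) and -0.16 for Cdk4.
In Elane-high cells Plk1 became 0.23 at matched depth and 0.032 within SB17, Kif11 0.14 at matched depth and Kif22 0.045 with doubled thresholds. Fen1 became 0.84 in Pf4-high cells after thinning. In Flt3-positive against Car1-high cells Top2a became -1.003 after thinning and Tpx2 0.59 with doubled thresholds; against Elane-high cells Top2a became -0.85 after thinning, Mcm6 0.30 and Mcm5 0.0078 on library size, Uhrf1 1.22 at matched depth and 0.21 within SB17, and Cdt1 0.32 within SB17. Of the other values 2345 kept their side of the threshold, with the same direction or, if uncalled in both fits, within 1 SE of the reported value. Another 356 lost and 72 gained a call, and 86 that were uncalled in both fits changed sign by more than 1 SE.
The classes share pools, so the pool was the block; without it Elane-high cells had 11 S phase and 14 mitosis calls, and with plates as units and the block 12 and 17. No paired analysis was possible for the group comparisons because replicate numbers only mark pools, and groups lie on different plates. Doubled thresholds could not be fitted in Cebpa Car1-high cells, nor doubled thresholds, a minimum of 1000 UMIs, SB17 or matched depth for Pf4-high cells.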

Other observations

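The 12 pools whose label and well table name different groups, other than the Cebpe pools, held 1994 kept cells and entered no comparison of the report's main groups. Their S phase level ran from 36.2 to 54.3 UMIs per 10000 with a median of 43.9, and their mitosis level from 33.2 to 58.1 with a median of 39.1.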
